A study of Mus musculus with 8 samples.

Results

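The kinesin superfamily is the set of motor proteins that use ATP to move along microtubules. Its genes were examined in RNA sequencing of embryonic mouse retina, control or conditional knockout (CKO) for *Lhx2*, a LIM homeodomain transcription factor of retinal progenitor cells. Members were the protein coding genes of the deposited table whose symbols begin with Kif and a digit, together with *Kifc1*, *Kifc2* and *Kifc3*, which gave 40 of 28432 genes. *Kif12* and *Kif28* were not analysed here. One member, *Kif1bp*, fits the naming pattern but encodes a kinesin-binding protein and not a motor. By textbook role, 13 members were placed with the mitotic kinesins, 11 with the axonal and neuronal transport kinesins, 9 with the ciliary kinesins and 7 in a group of others.

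Each sample held both retinas of 1 embryo at E15.5, 4 days after the dam had been given tamoxifen at E11.5 by gavage (0.15 to 0.2 mg per g of body weight). The 4 control embryos were *Lhx2* flox/+; *Hes1* CreERT2/+ and the 4 CKO embryos were *Lhx2* flox/-; *Hes1* CreERT2/+, so all had lost 1 copy of *Hes1* to the inducible Cre recombinase, which acts in progenitors that express *Hes1*. Recombination of the floxed copy leaves 1 intact copy of *Lhx2* in control cells and none in CKO cells. The strain also carries the *Rosa26* ai14 reporter, and the CKO eye is small at this age. The embryos came from several litters collected over consecutive days, and the sources used here do not say which sample belongs to which.

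In dividing cells kinesins slide, crosslink and depolymerize spindle microtubules, move chromosomes and build the midbody on which daughter cells separate. In neurons, which no longer divide, kinesins carry vesicles, mitochondria and receptors from the cell body into the axon. In the primary cilium, kinesin-2 pulls intraflagellar transport trains to the tip, and *Kif7* sets the compartment in which Gli factors are processed for Hedgehog signaling. At E15.5 the retina contains dividing progenitors side by side with young neurons, among them retinal ganglion cells that are extending axons to the brain. The comparison of control with CKO therefore asked how motors of these different duties changed when *Lhx2* was removed.

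The 8 samples held 13143587 to 19099937 counted reads. Control replicate 3 and CKO replicate 1 stood apart on the second principal component (17.3% of the variance), while the first (50.2%) separated the genotypes. *Xist* and Y-linked genes marked control replicates 1 and 4 and CKO replicate 1 as female. *Lhx2* was at 3478, 3082, 3631 and 3138 normalized counts in the control samples and at 2557, 2765, 2853 and 2868 in the CKO samples, lower in each CKO sample but short of the cutoff of 0.001 used for calls (log2FC -0.27 ± 0.06 (SE), edgeR adjusted p = 0.00502). The deletion removes only some exons and reads of the others still count, so this is a weak check of the labels. Summed normalized counts of 7 ganglion cell markers ranged from 41762 to 46738 in control and from 59699 to 65833 in CKO, and 5 of the 7 rose (*Cntn2*, *Elavl4*, *Isl1*, *Pou4f2*, *Nefm*). Of the progenitor markers reported here *Hes1*, *Rax* and *Sox2* fell, *Sfrp2* rose, and *Pax6* and *Six3* did not pass. Sums for 7 retinal pigment epithelium markers were 251 to 441 against 122 to 156 (1 fell, *Rpe65* under 10 reads in all). Of these, *Mitf* gave a log2FC of -0.01 with overlapping groups, and *Rpe65* and *Mlana* were not tested. For 5 endothelial markers the sums were 4321 to 4585 against 2622 to 3427. The endothelial sum is mostly *Kdr*, which fell with *Cldn5*, while *Cdh5*, *Pecam1* and *Tie1* gave log2FC of 0.09, 0.05 and 0.07 with overlapping groups. The mesenchyme list of 6 genes ranged from 102.3 to 168 against 37.3 to 102.4. In that list *Col1a2* fell, *Col1a1* gave a log2FC of -0.01 with overlapping groups, and 4 genes had too few reads to be tested. The ranges of the genotypes overlapped for the lists of photoreceptor precursors, lens, blood and macrophages, and narrowly for that of mesenchyme.

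Normalized counts are reads divided by a size factor of each library. The test was edgeR's quasi-likelihood test, fitted over the 13891 genes that reached 20 normalized counts in 3 or more samples. A gene rose or fell where its Benjamini-Hochberg adjusted p was below 0.001. The study used the same cutoff with another test, DESeq2, which passes more genes in these counts. Changes are given as log2FC, CKO over control, with a standard error, and levels as mean ± SD with n = 4 per genotype. Across all genes tested 8.61% passed, 3.64% by rising and 4.97% by falling, and the median log2FC was 0.01. The 4 CKO values lay entirely above the 4 control values in 15.9% of the genes and entirely below them in 17.9%, together 33.8%.

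Of the 40 kinesin genes, 38 passed the filter on low counts, 6 rose, 12 fell and 20 did not pass the test. Among 12 mitotic kinesins tested 11 fell and none rose, with a median log2FC of -0.50. Of 11 axonal kinesins 5 rose and none fell, with a median of 0.42. None of 8 ciliary kinesins passed in either direction (median 0.01), and 3 had an unadjusted edgeR p below 0.05, as did 43.6% of all genes tested. DESeq2 and limma voom likewise gave no mitotic kinesin that rose and no axonal kinesin that fell. DESeq2 called 7 axonal kinesins that rose and limma voom 5. For the ciliary kinesins DESeq2 called 1 that rose (*Kif3b*) and limma voom none. The remaining 7 genes held 1 that rose (*Kif26a*) and 1 that fell (*Kif1c*). Without control replicate 3, 11 mitotic kinesins fell and 6 axonal kinesins rose; without CKO replicate 1 these counts were 10 and 5.

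**Figure D1:**
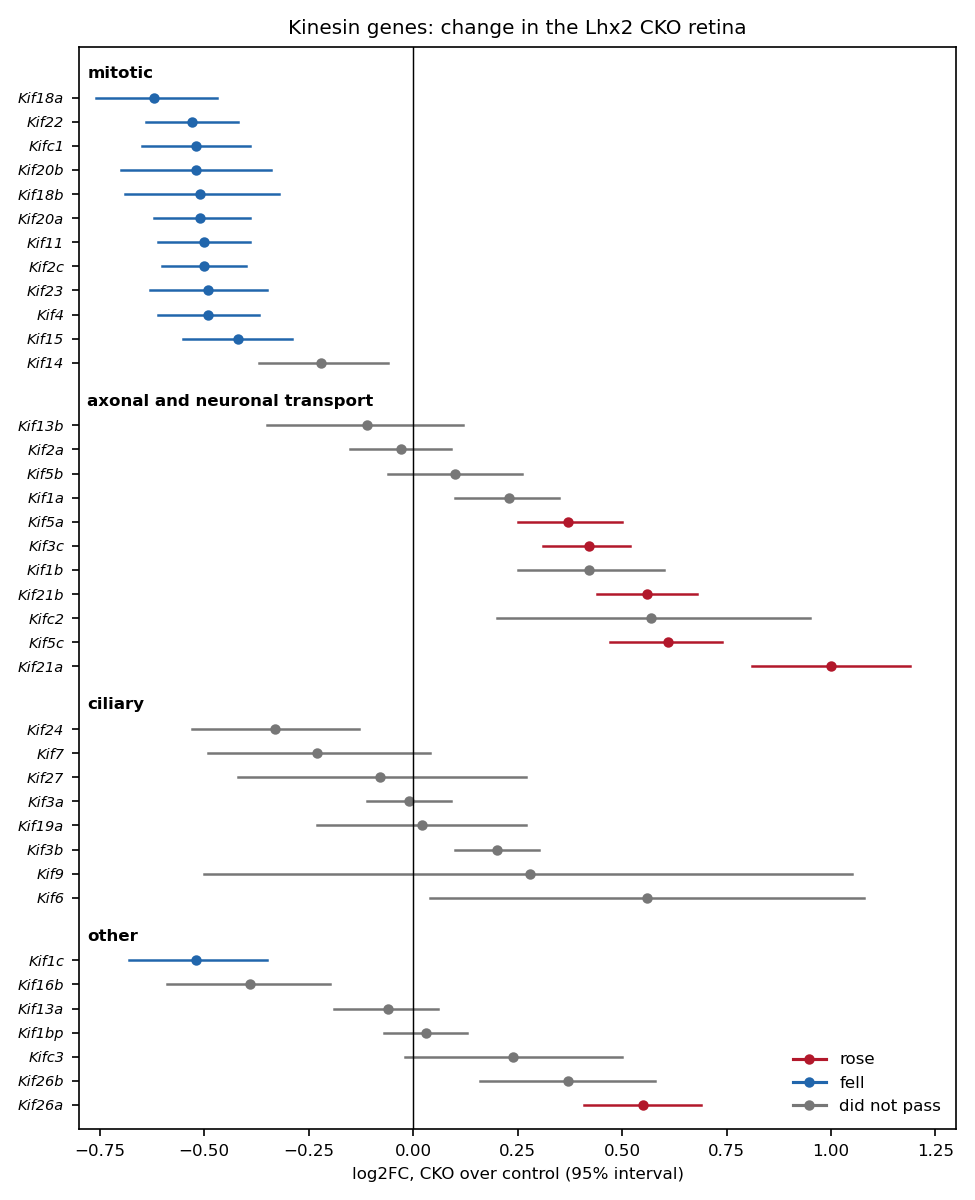
log2FC of CKO over control for the 38 kinesin genes tested, grouped by class and ordered by size. Points are edgeR estimates and bars their 95% intervals, blue where a gene fell, red where it rose and grey where it did not pass. All 12 mitotic kinesins lie left of 0, the 5 axonal kinesins that rose lie between 0.37 and 1.00, and the ciliary kinesins scatter around 0.

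The mitotic kinesins are described first. Most of their promoters hold a short string that the choice of members did not use. Stretches of 30 bases around it are printed because they come from genes that fell together. The string is the cell cycle genes homology region (CHR), TTTGAA or TTCGAA on either strand, an element known from genes that are switched on late in the cell cycle and bound there by the MuvB complexes. Promoter windows of RefSeq (GRCm38.p6, 250 bases before to 50 bases after a transcript start) were at hand for 31 members. The 8 mitotic genes with the string within 50 bases of the start are shown 5′ to 3′ on the strand of the gene, with the match in capitals (TTCAAA is TTTGAA read on the other strand).
*Kif11*, chr19:37376351-37376380, plus strand: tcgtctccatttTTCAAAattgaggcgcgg
*Kif15*, chr9:122951050-122951079, plus strand: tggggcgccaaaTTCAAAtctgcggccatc
*Kif18b*, chr11:102925104-102925133, minus strand: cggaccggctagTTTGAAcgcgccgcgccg
*Kif20b*, chr19:34922353-34922382, plus strand: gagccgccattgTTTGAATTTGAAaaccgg
*Kif22*, chr7:127042420-127042449, minus strand: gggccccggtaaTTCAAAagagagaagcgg
*Kif23*, chr9:61946780-61946809, minus strand: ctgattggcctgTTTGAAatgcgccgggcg
*Kif4*, chrX:100626072-100626101, plus strand: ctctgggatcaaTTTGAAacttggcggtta
*Kifc1*, chr17:33890615-33890644, minus strand: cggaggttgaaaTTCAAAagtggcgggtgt

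In these 8 genes the first base of the match lay between 19 bases before and 20 bases after the start, where the start itself is base 1. *Kif20b* holds the string 2 times in a row, at bases 8 and 14. Over the whole window 10 of 12 mitotic promoters (83.3%) held a CHR string, against 1 of 9 windows of axonal kinesins, 2 of 9 of ciliary kinesins, 1 of 5 of the others and 19.2% of all 32851 windows; a gene with several starts has several windows. Between 50 bases before and 50 after the start, a range set after the positions had been seen, the shares were 66.7% of mitotic and 5.31% of all windows. In the 200 bases upstream alone they were 33.3% and 13.4%. *Kif18a*, which fell most, holds no CHR string in its window, and *Kif14*, which did not pass, holds one 228 bases before its start. *Kif2b*, whose reads were too few for a test, is among the 12 windows and holds none. The only match of *Kif2c* lies 103 bases before its start. Windows of the mitotic *Kif20a*, of the axonal *Kif5a*, *Kif5b*, *Kif13b*, *Kif21b* and *Kifc2*, and of *Kif19a*, *Kif1bp* and *Kifc3* were not analysed here. The 9 axonal windows thus come from 6 genes, and *Kif5a* and *Kif21b*, which rose, are not among them.

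**Figure D2:**
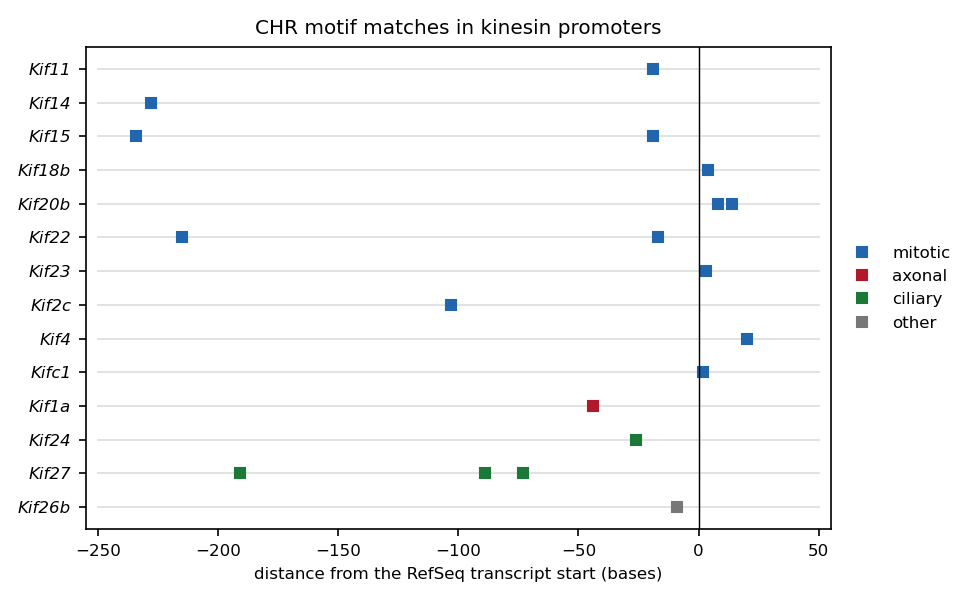
Positions of CHR strings in the promoter windows of the kinesin genes that hold one, in bases from the RefSeq transcript start (vertical line). Each square is the first base of a match, colored by class, and each grey line spans the window from 250 bases before to 50 bases after the start. Of the mitotic genes, 8 have a match near the start.

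Other strings were searched in the same windows. CCAAT, the element of the NF-Y factor, was found in 8 of 12 mitotic windows (66.7%) and in 37.4% of all windows. It was also in 5 of 9 ciliary windows (55.6%), 2 of 9 axonal windows (both of *Kif1b*) and 1 of 5 of the others. The E2F strings TTTCCCGC and TTTGGCGC were found in 2 mitotic windows, those of *Kif15* and *Kif18a*, and in 1.56% of all. TAATTA or TAATTG, core strings of LIM homeodomain factors, were in none of the mitotic or axonal windows, in 4 of 9 ciliary windows (*Kif6*, *Kif9* and *Kif27*) and in 12.4% of all. Both strands were searched, and a match was counted wherever it overlapped another.

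*Kif11* encodes the plus-end motor that pushes spindle poles apart and had the highest level per length of the mitotic class, 478 ± 25.9 normalized counts per kb of exon in control and 338 ± 10.3 in CKO. Its normalized counts were 3560, 3694, 3290 and 3707 in the control samples and 2436, 2540, 2617 and 2491 in the CKO samples. Every CKO sample lay well below the lowest control, replicate 3. The gene fell by 29.2% (log2FC -0.50 ± 0.05, edgeR adjusted p = 3.55e-05).

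*Kif2c*, the centromere depolymerase known as MCAK, had the smallest p of the class. It stood at 1465, 1373, 1368 and 1385 normalized counts in control and at 955, 1018, 1005 and 972 in CKO. Control values other than replicate 1 were nearly equal, and the genotypes did not overlap. The fall was 0.50 on the log2 scale (log2FC -0.50 ± 0.05, edgeR adjusted p = 2.00e-05).

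*Kif22*, a chromokinesin that pushes chromosome arms away from the poles, gave 1790, 1761, 1843 and 1692 normalized counts in control and 1133, 1243, 1301 and 1230 in CKO. CKO replicate 1 was the lowest sample of the 8. The log2FC was -0.53 ± 0.05 (edgeR adjusted p = 2.56e-05).

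*Kif4*, the other chromokinesin and a partner of Prc1 at the midzone, was at 1549, 1646, 1463 and 1593 normalized counts in control and at 1031, 1171, 1137 and 1114 in CKO. Again CKO replicate 1 was lowest and no values overlapped (log2FC -0.49 ± 0.06, edgeR adjusted p = 7.16e-05). The gene is on the X chromosome, and it stayed past the threshold with embryo sex as a second term. Of its exon bases 15.1% lie under an exon of *Pdzd11* on the opposite strand, and the unstranded libraries cannot separate these genes.

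*Kif20a* (Mklp2), which brings the chromosomal passenger complex to the midzone, had 1609, 1485, 1441 and 1554 normalized counts in control and 1026, 1101, 1106 and 1049 in CKO. The gap between the groups was wider than either group's range (log2FC -0.51 ± 0.05, edgeR adjusted p = 3.24e-05). *Cdc23*, on the opposite strand, covers 29.3% of its exon bases.

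*Kif18a*, which dampens chromosome oscillations at the plus ends of kinetochore microtubules, fell furthest. Its normalized counts were 997, 956, 958 and 1112 in control and 616, 707, 674 and 624 in CKO. Control replicate 4 was high, and the lowest control was still above the highest CKO sample. It fell by 34.8% (log2FC -0.62 ± 0.07, edgeR adjusted p = 4.96e-05).

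The other 5 mitotic kinesins that fell were *Kifc1*, a minus-end motor that focuses poles, *Kif23*, the motor of centralspindlin, *Kif15*, which backs up *Kif11* in keeping the spindle bipolar, *Kif20b*, a midbody motor, and *Kif18b*, a depolymerizer of astral microtubules. Their log2FC lay between -0.52 and -0.42. Over the 11 genes that fell, the change spanned -34.8% to -25.3% while control levels spanned 611 to 3563 normalized counts. Of the 50-base windows of *Kifc1* transcripts, 39.7% also occur in *Kifc5b* and related sequences, so the count of *Kifc1* is uncertain by the reads that these copies share. *Kifc5b*, no member here, was at 147 ± 6.23 in control and 109 ± 7.61 in CKO (log2FC -0.42 ± 0.10, edgeR adjusted p = 0.00633). In the other members at most 5.03% of such windows were shared on the same strand. Exons on the other strand, which unstranded libraries cannot separate, cover up to 40.7% of a member's exon bases (*Kif3c*). In *Kif2a* they cover 19.2% and in *Kifc3* 27.5%.

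*Kif14*, a cytokinesis motor that recruits citron kinase, was the mitotic kinesin that did not pass. Its level was 713 ± 63.3 in control and 614 ± 16.6 in CKO (log2FC -0.22 ± 0.07, 95% interval -0.37 to -0.06, edgeR adjusted p = 0.0358), and its groups did not overlap. In all 12 of 12 mitotic kinesins tested the CKO samples lay entirely below the controls, against 17.9% of all genes. *Kif2b* had 1 read in all control samples together and 1 in all CKO samples and was not tested. The count of mitotic kinesins that fell went down to 7 without CKO replicate 4, and the median log2FC stayed between -0.52 and -0.49 over the 8 fits without 1 sample. With the replicate number as a block the calls of *Kif23*, *Kif15*, *Kif18b* and *Kif20b* were lost. *Kif23* was also lost without CKO replicate 4. *Kif15* and *Kif18b* were also lost without any 1 of control replicates 1, 2 and 4 and CKO replicates 2, 3 and 4. *Kif20b* was also lost without control replicate 1, 2 or 4 or CKO replicate 1, 2 or 4. With embryo sex as a term it was lost too (edgeR adjusted p = 0.00123).

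**Figure D3:**
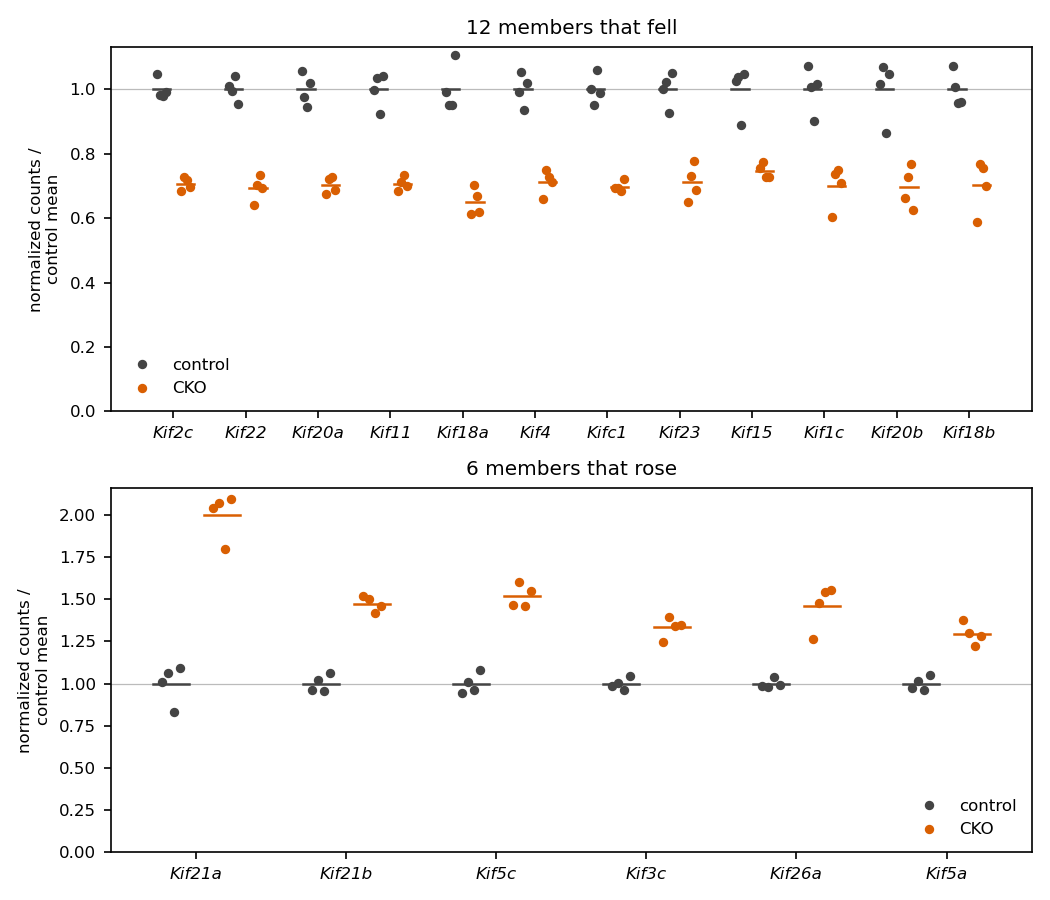
Normalized counts of the 18 kinesin genes that rose or fell, each divided by its control mean, with 4 control (grey) and 4 CKO (orange) samples per gene and bars at the group means. The upper panel shows the 12 genes that fell and the lower panel the 6 that rose, each ordered by p. In no gene do the 2 genotypes overlap.

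Genes that work with these motors at the spindle and midbody fell too. In a list of 20 such genes 16 fell and none rose (median log2FC -0.48). The smallest p-values belonged to *Cdca8* (2207 ± 70.8 to 1425 ± 36.9 normalized counts) and *Birc5* (1477 ± 105 to 955 ± 33.4), both of the chromosomal passenger complex, and *Nusap1* (2829 ± 78.1 to 1958 ± 133), a microtubule bundler. The 4 that did not pass were *Mki67*, *Cenpe*, *Cenpf* and *Cit*, with log2FC from -0.51 to -0.35. Of these, *Cenpe* itself encodes a mitotic kinesin, which the choice of members by symbol left out (log2FC -0.35 ± 0.07, edgeR adjusted p = 0.00287). Spindle genes are transcribed mainly in cycling cells. In bulk tissue fewer cells of a type and less RNA per cell cannot be told apart. The part of the progenitor, pigment epithelium and endothelial markers given above in these falls was not tested. Each of these lists was mixed: *Sfrp2* rose, and *Mitf*, *Cdh5*, *Pecam1* and *Tie1* overlapped between genotypes.

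Among the axonal kinesins, *Kif21a* changed most of all 38 members. It encodes a kinesin that restrains microtubule growth in axons and growth cones. Normalized counts were 2851, 3004, 2345 and 3076 in the control samples and 5745, 5838, 5062 and 5908 in the CKO samples. Control replicate 3 and CKO replicate 3 were low within their groups, and the lowest CKO sample was still far above the highest control. It rose by 100% (log2FC 1.00 ± 0.09, 95% interval 0.81 to 1.19, edgeR adjusted p = 1.04e-05), and per length *Kif21a* moved from rank 7 to rank 4 of the family.

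Its paralog *Kif21b*, a neuronal motor that also regulates microtubule dynamics, was at 4386, 4629, 4335 and 4829 normalized counts in control and at 6902, 6817, 6442 and 6630 in CKO. The samples of each genotype lay close together and apart from the other genotype. It rose by 47.6% (log2FC 0.56 ± 0.05, edgeR adjusted p = 2.12e-05).

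The heavy chains of kinesin-1, the main carrier of axonal cargo, are encoded by *Kif5a*, *Kif5b* and *Kif5c*, of which *Kif5b* is made in most cell types and the others mainly in neurons. *Kif5c* was the most abundant kinesin per length in both genotypes (1138 ± 68.1 and 1730 ± 78.4 normalized counts per kb). It had 7693, 8223, 7819 and 8772 normalized counts in control and 11912, 13024, 11873 and 12607 in CKO, with no overlap. The rise was 52.2% (log2FC 0.61 ± 0.06, edgeR adjusted p = 2.82e-05).

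*Kif5a* was at 5296, 5503, 5219 and 5691 normalized counts in control and at 7460, 7041, 6637 and 6947 in CKO. CKO replicate 1 was the highest of the 8 samples. The increase of 29.6% was the smallest among the members that rose (log2FC 0.37 ± 0.06, edgeR adjusted p = 4.55e-04). This call was lost without control replicate 1, 2 or 4, without CKO replicate 2 or 4, and with the replicate number as a block. In those fits the edgeR adjusted p was at most 0.00286.

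*Kif5b* was at 3090, 3314, 2641 and 3382 normalized counts in control and at 3212, 3491, 3317 and 3320 in CKO. Here the genotypes overlapped, with control replicate 3 lowest. The log2FC was 0.10 ± 0.07, with a 95% interval from -0.06 to 0.26 (edgeR adjusted p = 0.302). Per length, *Kif5c* made up 49.4% ± 0.867 of the heavy chain transcripts in control and 54.9% ± 1.2 in CKO, *Kif5b* 16.9% ± 1.11 and 13.3% ± 0.386, and *Kif5a* 33.7% ± 0.616 and 31.9% ± 1.45. The shares of *Kif5c* and *Kif5b* did not overlap between genotypes and those of *Kif5a* did.

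*Kif3c* is the neuronal alternative to *Kif3b* as partner of *Kif3a* in kinesin-2. Its normalized counts were 2465, 2515, 2408 and 2616 in control and 3113, 3490, 3357 and 3368 in CKO. The groups were separate, with CKO replicate 1 nearest to the controls (log2FC 0.42 ± 0.05, edgeR adjusted p = 7.20e-05). Other-strand exons of *1110002L01Rik* and *Gm48512* cover 40.7% of its exon bases, whose reads cannot be told apart from those of *Kif3c*.

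The 6 axonal kinesins that did not pass include the synaptic vesicle precursor motors *Kif1a* (log2FC 0.23 ± 0.06, edgeR adjusted p = 0.0104) and *Kif1b* (0.42 ± 0.08, edgeR adjusted p = 0.00189) and the minus-end motor *Kifc2* (0.57 ± 0.17, edgeR adjusted p = 0.0232). In these 3 genes the CKO samples all lay above the controls. *Kif1b* passed under DESeq2, without the filter on low counts and without control replicate 3, in which it was at 8651 against 10196 to 11354 in the other controls. *Kif13b* and *Kif2a* gave log2FC of -0.11 and -0.03 with overlapping groups. *Kif2a* also acts at spindle poles and was counted here only with the axonal class. Over the class 8 of 11 members were separate and higher in CKO, against 15.9% of all genes.

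Per length, the axonal class held 52.1% ± 1.07 of all kinesin transcripts in control and 64.2% ± 1.23 in CKO. The mitotic class went from 29.0% ± 0.681 to 18.5% ± 0.748. The ciliary class made up 10.6% ± 0.316 and 9.68% ± 0.306, and the others 8.29% ± 0.203 and 7.66% ± 0.331. These are shares of one whole, so a class can hold a smaller share with no change in its own genes. Kinesin reads as a whole were 0.466% to 0.52% of all counted reads in control and 0.559% to 0.575% in CKO.

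**Figure D4:**
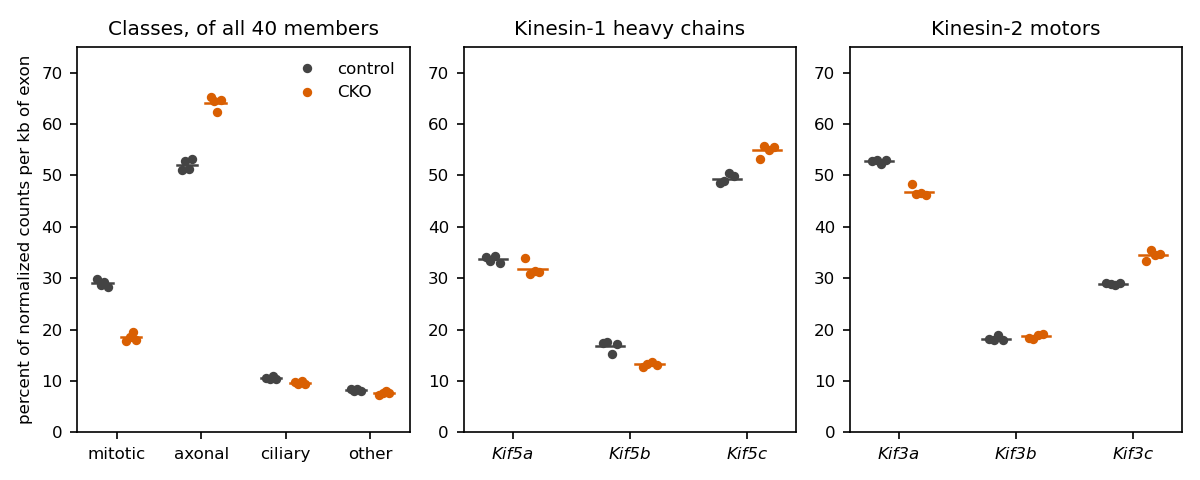
Percent of normalized counts per kb of exon held by each class among all 40 kinesin genes (left), by each heavy chain gene of kinesin-1 (middle) and by each motor gene of kinesin-2 (right). Points are samples, 4 control (grey) and 4 CKO (orange), and bars are means. The axonal class, *Kif5c* and *Kif3c* hold larger shares in every CKO sample than in any control, and the mitotic class, *Kif5b* and *Kif3a* smaller ones.

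Kinesin light chains and cargo adaptors, which link kinesin-1 and its relatives to their loads, numbered 20 genes, *Kif1bp* among them, of which 5 rose and 1 fell (median log2FC 0.25). *Trak1*, the adaptor for mitochondria, had the smallest p and went from 518 ± 32.2 to 871 ± 16.3 normalized counts (log2FC 0.75 ± 0.06, edgeR adjusted p = 6.08e-06). *Fez1*, an adaptor in axonal outgrowth, went from 1513 ± 124 to 2149 ± 135. *Sybu* (syntabulin), a linker for syntaxin vesicles and mitochondria, was the one that fell, from 793 ± 41.2 to 595 ± 29.9, a call lost without control replicate 1 or 4 or CKO replicate 3 or 4. The other 3 that rose, named after their values were seen, were *Klc2*, *Grip1* and *Kidins220*, with log2FC of 0.35, 0.30 and 0.43. The number of adaptors that rose was 2 in 5 of the fits without 1 sample, those without control replicate 1 or 2 and without CKO replicate 2, 3 or 4. Dynein and dynactin, the motor for the return journey, had 23 genes tested, of which none rose at this cutoff (14 at an unadjusted edgeR p below 0.05 in either direction, against 43.6% of all genes) and *Nde1* fell, from 2226 ± 75.3 to 1640 ± 109; the next smallest p-values were those of *Dync1li1* (log2FC 0.27) and *Dynlt3* (-0.38). The ganglion cell markers given above rose along with the axonal kinesins, and their part in that result was not tested.

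No ciliary kinesin passed the test. *Kif3a*, the obligate motor of kinesin-2 and the ciliary kinesin with the highest level per length (615 ± 22.5 and 611 ± 4.19 normalized counts per kb), was at 2176, 2229, 2117 and 2307 normalized counts in control and at 2185, 2208, 2201 and 2175 in CKO. All CKO samples lay inside the control range. The log2FC was -0.01 ± 0.04 with a 95% interval from -0.11 to 0.09 (edgeR adjusted p = 0.912), and the changes of the mitotic kinesins that fell lay outside the interval.

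*Kif3b*, the partner of *Kif3a* in the ciliary motor, was at 1169, 1192, 1208 and 1223 normalized counts in control and at 1313, 1369, 1398 and 1413 in CKO. The groups did not overlap, with small spread in each. The log2FC of 0.20 ± 0.04 did not reach the cutoff (edgeR adjusted p = 0.00569), and DESeq2 called it. As a share of the kinesin-2 motor transcripts per length, *Kif3a* went from 52.8% ± 0.363 to 46.9% ± 0.95, *Kif3b* from 18.2% ± 0.491 to 18.7% ± 0.384 and *Kif3c* from 29.0% ± 0.137 to 34.5% ± 0.887. *Kifap3*, the non-motor subunit of the complex, was at 2637 ± 115 in control and 2980 ± 122 in CKO (log2FC 0.18 ± 0.05, edgeR adjusted p = 0.0134).

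*Kif7*, the kinesin-4 family protein of Hedgehog signaling, was at 208, 210, 169 and 180 normalized counts in control and at 189, 138, 167 and 161 in CKO. The values of the genotypes overlapped. The log2FC was -0.23 ± 0.12, with a 95% interval from -0.49 to 0.04 (edgeR adjusted p = 0.175), which includes changes as large as that of *Kif15*, the smallest of the mitotic kinesins that fell. Exons of *9330171B17Rik* and *Ticrr* on the other strand cover 20.3% of its exon bases.

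*Kif24*, which limits cilium assembly, had a log2FC of -0.33 ± 0.09 (edgeR adjusted p = 0.0177) with overlapping groups and passed only in the fit without control replicate 3. *Kif19a*, a depolymerase of motile cilia, and *Kif27*, the paralog of *Kif7*, gave log2FC of 0.02 and -0.08. *Kif6* and *Kif9*, known from motile cilia, were at low levels, with control means of 19.2 and 16.5 normalized counts. The CKO samples of *Kif6*, with a mean of 28.5, all lay above the controls (log2FC 0.56 ± 0.24, edgeR adjusted p = 0.0896). *Kif17* had 46 reads in all control samples together and 84 in all CKO samples and was not tested. The cargo of kinesin-2, the intraflagellar transport particle, was listed with 23 genes, of which *Ift74* fell (1336 ± 33.5 to 917 ± 76.7 normalized counts, log2FC -0.54 ± 0.06, edgeR adjusted p = 5.41e-05) and none rose; 9 had an unadjusted edgeR p below 0.05, against 43.6% of all genes. *Ift80* (log2FC -0.43) and *Traf3ip1* (-0.33) were next by p, and the median of the list was -0.17. Without control replicate 3 the list held 3 that fell. In 9 genes of the list the CKO samples lay entirely below the controls and in 1 entirely above, against 17.9% and 15.9% of all genes.

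In the remaining group, *Kif26a*, an atypical kinesin without ATPase activity that acts in neuronal signaling, rose. It was at 918, 912, 966 and 921 normalized counts in control and at 1177, 1374, 1433 and 1444 in CKO. The controls were tightly grouped and CKO replicate 1 was the lowest of its group. The log2FC was 0.55 ± 0.06 (edgeR adjusted p = 8.37e-05), and the gene passed in all 16 alternatives.

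*Kif1c*, a fast vesicle motor found in many cell types, was at 1088, 1020, 914 and 1031 normalized counts in control and at 612, 748, 760 and 718 in CKO. CKO replicate 1 was lowest and the groups were separate. It fell by 30.0% (log2FC -0.52 ± 0.08, edgeR adjusted p = 4.15e-04) while *Kif1a* and *Kif1b* of the same family had positive values; the call was lost in 5 of the fits without 1 sample, those without control replicate 1, 2 or 4 and without CKO replicate 2 or 4.

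*Kif1bp* had the highest level per length of the group (227 ± 5.74 and 231 ± 8.20 normalized counts per kb). Its normalized counts were 1134, 1103, 1130 and 1073 in control and 1113, 1184, 1141 and 1091 in CKO. The values overlapped, and the 95% interval of the log2FC ran from -0.07 to 0.13. *Kif26b*, the paralog of *Kif26a*, had a log2FC of 0.37 ± 0.10 (edgeR adjusted p = 0.0116), and the endosomal motor *Kif16b* one of -0.39 ± 0.09 (edgeR adjusted p = 0.0056), both with separate groups. *Kif13a* and *Kifc3* gave -0.06 and 0.24 with overlapping groups.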

How the data were processed

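RNA was measured in 8 samples, 4 control and 4 CKO. The authors made unstranded poly(A) libraries, sequenced them from 1 end, aligned the reads to mm10 with TopHat2 and counted them by gene with HTSeq. Cufflinks is also named in the submitters' processing notes. The deposited values are raw counts, not normalized and not pooled, and were used as such. The sources used here give neither tool versions nor an annotation release.

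Samples were grouped by their labels. In R 4.3.3, edgeR 4.0.16 (TMM scaling, quasi-likelihood test, genotype as the only term, all 8 samples) was run on genes that reached 20 normalized counts in 3 or more samples, with Benjamini-Hochberg adjustment over all genes tested and a cutoff of 0.001. Normalized counts are counts over median-of-ratios size factors. Levels between genes were compared per kb of merged exons. Coordinates, exon lengths and overlaps come from GENCODE M21 (GRCm38, the assembly mm10 names), which held 28232 of the gene IDs. Replicates of a genotype differed beyond counting noise in every pair, with a chi-square of 3.54 to 20.8 per gene. Each sample is a separate embryo.

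Alternatives were DESeq2 1.42.0, limma voom (3.58.1), other scalings and filters, a cutoff of 0.05, embryo sex as a term, a replicate block and fits with each sample left out. The scripts were tested on simulated data. The members, classes and lists were chosen with earlier results of these data known. The text gives values in every sample for called members (up to 6 per class and direction by p), for the member of each class with the highest level per length, for the subunits of kinesin-1 and kinesin-2 and for *Kif7*, and up to 3 genes of each partner list by p. One marker gene, and the summed level of its list, is not reported here.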

Additional observations from a re-analysis of the deposited data

Results flagged for a closer look

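In 2 of 76 groups of 4 samples, 1 sample lay far from the other 3 by Dixon's test; chance gives about 1 in 20 such groups. Both were control replicate 3. For *Kif13b* it was at 380 normalized counts, against 527 to 534 in the other controls (gap over range 0.95). For *Kif15* it was at 1750, against 2021 to 2062 (0.869). *Kif13b* did not pass the test with or without this sample, and *Kif15* fell with and without it.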

How the results depend on the processing

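Of the 18 calls, 12 held in all 16 alternatives and 6 were lost in some (*Kif5a*, *Kif23*, *Kif15*, *Kif20b*, *Kif18b*, *Kif1c*), without a change of direction. Of 20 genes that did not pass, 14 passed in none and 6 in some: *Kif1b* under 3 alternatives, *Kif1a* and *Kif3b* under DESeq2, *Kifc2* without the filter, *Kif24* and *Kif16b* without control replicate 3. Over all genes 505 rose and 691 fell; DESeq2 gave 1158 and 1232, no filter 964 and 1091, and an adjusted p below 0.05 2207 and 2412. Leaving out 1 sample gave 264 to 707 that rose and 422 to 846 that fell, both lowest without CKO replicate 4 and highest without control replicate 3. Over the same fits 7 to 11 mitotic kinesins fell, 4 to 6 axonal kinesins rose, 0 to 1 ciliary and 0 to 2 other kinesins fell, 2 to 7 adaptors rose and 0 to 1 fell, and 1 to 3 intraflagellar transport genes fell (2 with library totals). At an adjusted p below 0.05, 8 axonal, 1 ciliary and 2 other kinesins rose, and 1 ciliary and 2 other kinesins fell; DESeq2 gave 1 ciliary kinesin that rose. The cause of these changes was not tested. Sign changes touched only genes with a log2FC near 0. *Kif2a* ranged from -0.0514 to 0.0155 without 1 sample (positive without control replicate 2), *Kif19a* from -0.0677 to 0.13 and *Kif3a* from -0.0268 to 0.016. *Kif19a* also turned negative with library totals (-0.00612) and with sex as a term (-0.0182), and *Kif3a* positive with sex (0.000593).

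The replicate numbers were not treated as pairs. Deviations of same-numbered samples correlated at -0.153 to 0.129, and those of differently numbered samples at -0.247 to 0.248. As the litter of each sample is not known, these values cannot show whether same-numbered samples share one. With the number as a replicate block 272 genes rose and 404 fell, 7 mitotic kinesins fell, 4 axonal kinesins rose, and 0 of the other kinesins fell. Genes of few reads, such as *Kif6*, *Kif9* and *Kif17*, could show only large changes at this depth.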
